A study of Mus musculus with 30 samples.

Results

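A set of 9 genes that place, make, break down or read out the messenger cyclic AMP (cAMP) were followed in the mouse small bowel after surgery: the anchoring proteins Akap5, Akap12 and Akap13, the phosphodiesterases Pde3a, Pde4a, Pde4b and Pde4d, the adenylyl cyclase Adcy9 and the transcription factor Crem. The 9 genes were chosen by name, with their changes after surgery known, out of 26179 genes in the tables of glial ribosome-bound mRNA and 24601 genes in the table of whole-tissue RNA. Their changes against naive mice are therefore given as a description, without a p-value.

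The study examined postoperative ileus, the loss of gut motility after abdominal surgery, which is modelled in mice by intestinal manipulation (IM). The muscularis externa (ME), the muscle layer of the small bowel that holds the myenteric nerve plexus and its glia, was taken from naive mice and at IM3h, IM24h and IM72h, that is 3, 24 and 72 hours after the operation. The RiboTag fraction is mRNA pulled down with ribosomes that carry an HA-tagged RPL22 protein. Per the study's methods, the total RNA of the ME comes from lysate before a pulldown. All groups carry the allele Rpl22tm1.1Psam, in which Cre switches on the tag. All RiboTag groups (4 libraries each at IM3h, IM24h and IM72h, 3 in naive mice) and the total RNA at IM24h and IM72h (4 libraries each) are labelled with the tamoxifen-inducible driver Tg(Sox10-icre/ERT2)388Wdr, which is active in Sox10-expressing cells. The total RNA of naive and IM3h mice (3 libraries each) is labelled with the driver Tg73.12Mvs (Gfap-cre). By the labels it is not from the lysates of the RiboTag libraries used here. In total RNA the driver line thus changes together with the late time points. In naive and IM3h mice it changes together with the fraction, so these cannot be told apart. The mice of the surgery experiments were adult males per the study's methods. Of the 4 naive RiboTag samples in the labels, 3 libraries are in the tables used here. Library names match no label, so libraries are numbered in name order within a group, and the labels do not say that libraries are separate animals. The study's legends count the sequenced samples as mice. The p-values given below measure the spread between these libraries.

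In mm10, with the GENCODE annotation, the genes lie at chr12:76324891-76334153 (Akap5), chr10:4266380-4359470 (Akap12), chr7:75455534-75754609 (Akap13), chr6:141249269-141507448 (Pde3a), chr9:21165714-21213248 (Pde4a), chr4:102087543-102607259 (Pde4b), chr13:108449948-109953461 (Pde4d), chr16:4287529-4420498 (Adcy9) and chr18:3266048-3337748 (Crem).

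As background, a receptor coupled to the stimulatory G protein, such as a β-adrenergic receptor bound by norepinephrine, turns on adenylyl cyclases, which make cAMP. cAMP frees the catalytic subunits of protein kinase A, and A-kinase anchoring proteins (AKAPs) hold that kinase at chosen places in the cell, often together with a phosphodiesterase that breaks cAMP down. The kinase phosphorylates the transcription factor CREB, and CREB switches on early genes, among them Crem, whose short products (ICER) repress the same genes, and Pde4b and Pde4d, whose products lower cAMP again.

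Library totals ranged from 3010306 to 7899493 estimated counts in the RiboTag tables and from 6603170 to 12866062 in total RNA. Levels are given as CPM, counts scaled to a common library size, after edgeR's TMM scaling, and changes as log2 fold changes with their standard error (SE). AY036118, a transcript of the ribosomal RNA locus, took 2.68 to 14.0% of the counts in naive RiboTag libraries, 2.02 to 10.3% at IM3h, 22.2 to 59.2% at IM24h and 58.0 to 80.1% at IM72h, where 560995 to 1439256 counts per library were left outside rRNA loci. In total RNA the share was 16.1 to 33.5% in naive mice, 24.1 to 25.1% at IM3h, 1.33 to 6.50% at IM24h and 2.34 to 3.69% at IM72h. The 7 glial markers summed to 1578 to 1906 CPM in naive RiboTag libraries against 119 to 143 CPM in naive total RNA, while 8 smooth muscle markers still summed to 5219 to 8073 CPM in the former. At IM72h the glial markers of the RiboTag libraries summed to 144 to 1461 CPM, Sox2 was at 0 in all 4 libraries, and Sox10, the gene whose promoter drives the Cre, was at 0 to 11.9 CPM against 486 to 1038 CPM in naive libraries. Sox10 at IM24h was at 38.0 to 420 CPM. Statements on IM24h and IM72h RiboTag libraries rest on these fewer counts and on libraries in which the defining glial marker is low or absent.

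**Figure D1:**
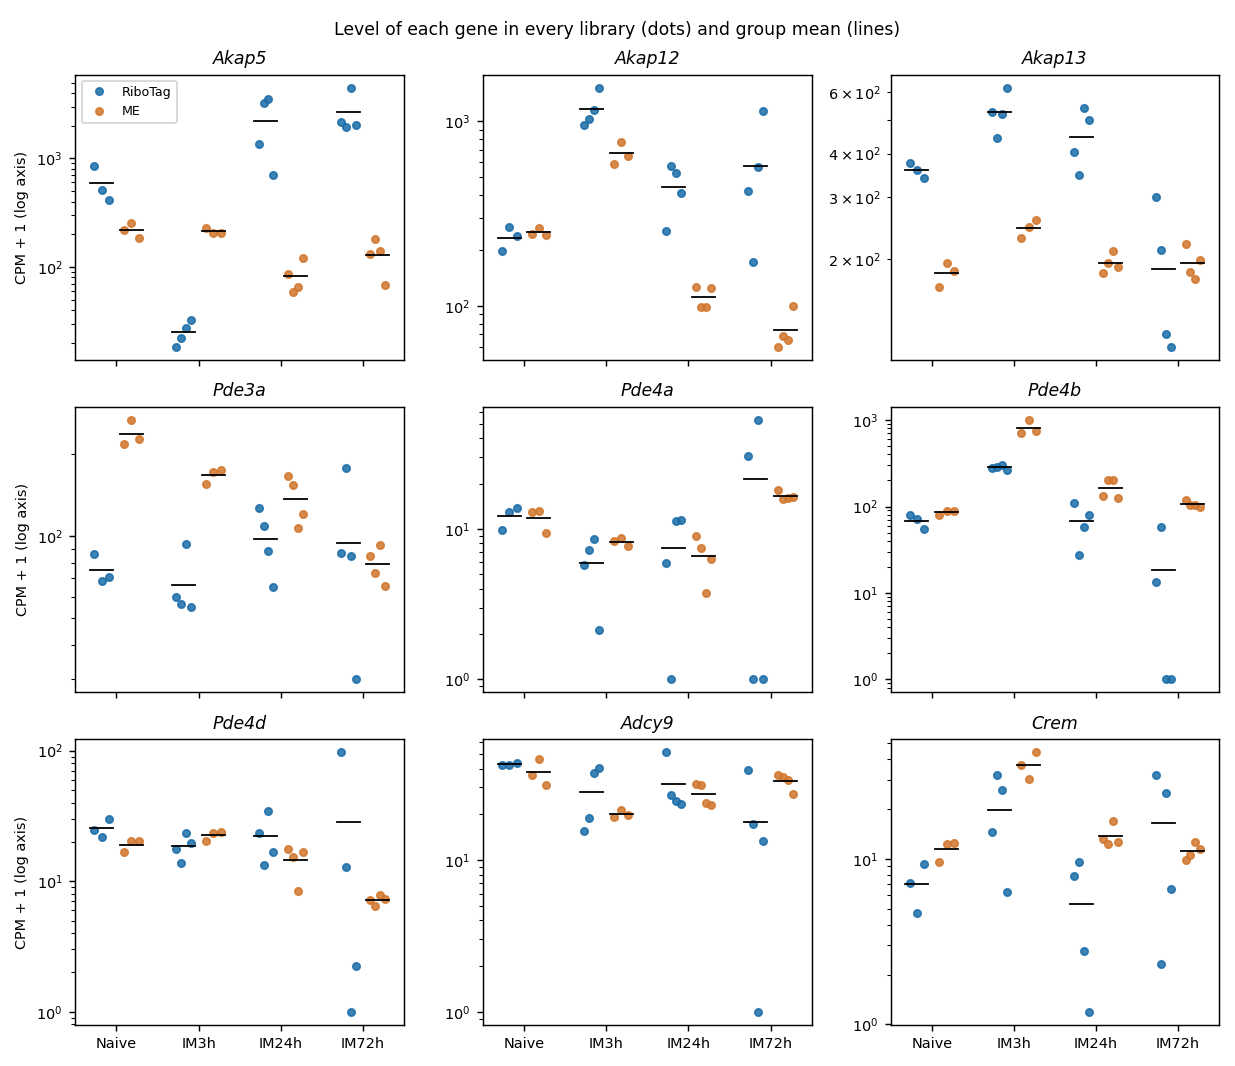
Level of each of the 9 genes in every library, as CPM plus 1 on a log axis, by group and fraction, each point being 1 library. Pde4b and Akap12 stand above the naive libraries at IM3h in both fractions, while Akap5, whose counts are uncertain, lies at 17.3 to 31.1 CPM in RiboTag libraries at IM3h and at 204 to 229 CPM in total RNA.

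Called means an adjusted p under 0.05 in edgeR's quasi-likelihood test (Benjamini-Hochberg over all genes tested), and all 9 genes passed the filter on low counts in each comparison. At IM3h, 3 of the 9 genes were called in the RiboTag fraction, where 13.3% of all genes tested were called (8.86% higher and 4.44% lower), and 6 in total RNA, where 32.7% were called. At IM24h none was called in the RiboTag fraction, where 0.497% of all genes were called; edgeR gave 2 members at an unadjusted p under 0.05, and DESeq2 called 1, Akap5. In total RNA at IM24h 4 were called, against 29% of all genes. At IM72h 1 was called in the RiboTag fraction, against 16.1% of all genes (1.05% called higher), and 5 in total RNA, against 57.5% (28.3% called lower). Since the genes were chosen with these contrasts known, nothing is read from the counts. Calls of single members against naive mice are likewise a description, here and below. The median log2 fold change of the 9 genes at IM3h was -0.13 in the RiboTag fraction and 0.29 in total RNA, beside -0.04 and 0.00 over all genes tested.

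**Figure D2:**
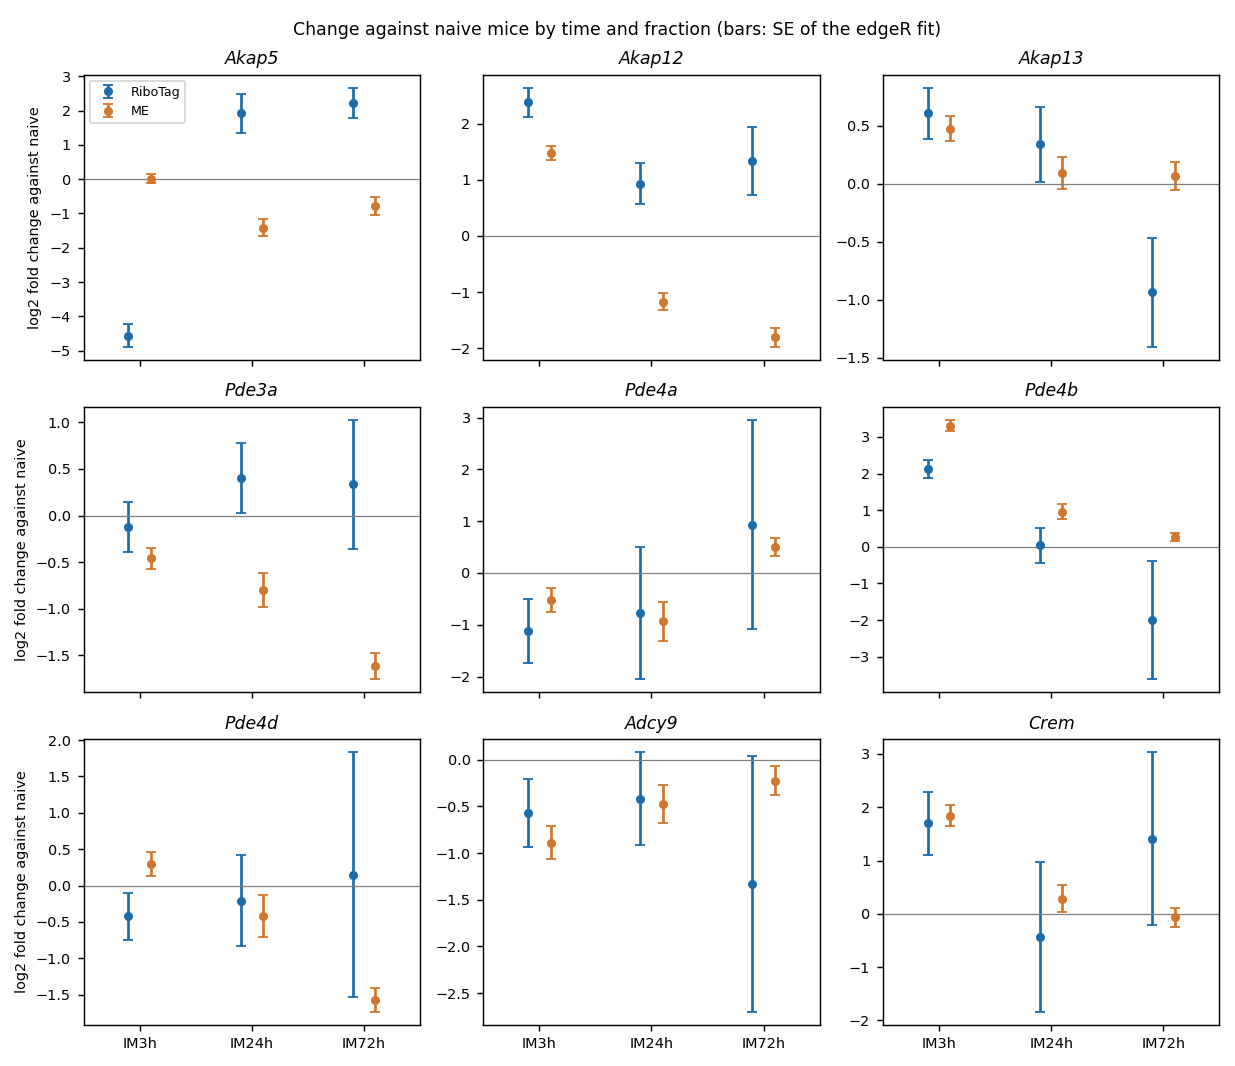
Log2 fold change against naive mice with its SE for each of the 9 genes at IM3h, IM24h and IM72h, in the RiboTag fraction and in total RNA of the ME. At IM3h Pde4b changed by 2.12 in the RiboTag fraction and by 3.31 in total RNA, and the SE bars of the RiboTag fraction widen toward IM72h, up to 2.02 for Pde4a.

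Among the phosphodiesterases, Pde4b, the isoenzyme gene most tied to inflammatory signaling in immune cells, stood out at IM3h in both fractions. In the RiboTag libraries Pde4b was at 78.8, 70.1 and 54.2 CPM in naive mice and at 278, 289, 301 and 261 CPM at IM3h. The groups did not overlap, and the 4 libraries after surgery lay close together. Pde4b was 4.33-fold higher, a log2 fold change of 2.12 (SE 0.24). In total RNA it was at 79.8, 88.7 and 86.8 CPM in naive mice and at 708, 1003 and 741 CPM at IM3h, 9.92-fold higher (log2 fold change 3.31, SE 0.15). Naive levels of Pde4b thus differed little between the fractions, whereas the level at IM3h was higher in total RNA. In bulk samples, more cells of a type and more RNA per cell cannot be told apart.

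After IM3h the Pde4b level came down. In total RNA it was at 131, 199, 204 and 125 CPM at IM24h (log2 fold change 0.95, SE 0.21) and at 117, 103, 102 and 98.6 CPM at IM72h (0.28, SE 0.11). Each of these 8 libraries was above all 3 naive ones. The change at IM24h was called on the main scaling, but with reference-gene scaling it was 0.543 and not called. In the RiboTag fraction the IM24h libraries at 108, 26.6, 57.2 and 78.3 CPM spanned the naive range, and at IM72h Pde4b was at 12.4, 56.7, 0 and 0 CPM. The log2 fold changes there were 0.04 (SE 0.48) and -2.0 (SE 1.62). Beside these levels, macrophage markers in total RNA summed to 224 to 257 CPM in naive mice, 195 to 220 at IM3h, 451 to 1047 at IM24h and 1331 to 1579 at IM72h, with 8 of 8 markers called higher at IM72h. The 5 listed neutrophil markers summed to 0.846 to 0.861 CPM in naive total RNA and to 21.6 to 30.1 CPM at IM3h, 44.3 to 212 CPM at IM24h and 19.5 to 56.1 CPM at IM72h. In RiboTag libraries at IM3h the neutrophil sum was 3.40 to 10.7 CPM and the macrophage sum 64.1 to 137 CPM against 95.2 to 198 CPM in naive libraries. Pde4b was thus highest at IM3h, the neutrophil sum of total RNA at IM24h and its macrophage sum at IM72h, and the part of these cells in the Pde4b level was not tested.

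Pde4b has several transcripts, which the deposited tables list by Ensembl name with an estimated count each. A table lists only transcripts with at least 10 counts over its libraries, and one that is not listed was taken as 0. Pde4b-202 (mm10, chr4:102589723-102605861), a short transcript that starts far inside the gene, took 78.1% of the Pde4b counts over the RiboTag libraries and 60.8% over total RNA. In RiboTag libraries it held 573, 467 and 285 estimated counts in naive mice and 2437, 2269, 2073 and 2747 at IM3h. In total RNA the short transcript held 341, 259 and 314 counts in naive mice and 2746, 3760 and 2812 at IM3h. The long transcript Pde4b-207 (chr4:102255003-102607259) went from 274, 112 and 332 counts to 2166, 2839 and 1586 in total RNA, so there both forms were above all naive libraries at IM3h. In RiboTag libraries Pde4b-207 held 2.34, 84.4 and 101 counts in naive mice and 993, 575, 188 and 16.4 at IM3h. The groups overlapped, and the library with 16.4 counts of the long form held the most of the short one. At IM72h the short form made up 79.7% of Pde4b in total RNA, against 51.2% in naive mice, and the long form 18.3% against 40.3%. The reads come from the 3′ end of transcripts, so counts of forms that share an end rest on the authors' assignment.

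Pde3a, a cAMP-hydrolysing enzyme that cyclic GMP inhibits and that is known from smooth muscle, heart and interstitial cells of Cajal, went down in total RNA. It was at 217, 265 and 226 CPM in naive mice and at 154, 170 and 174 CPM after 3 hours. The 4 libraries of IM24h held 165, 153, 106 and 119 CPM, those of IM72h 83.3, 72.5, 92.0 and 64.8 CPM. No library after surgery reached the naive range, and the log2 fold changes were -0.46 (SE 0.12), -0.80 (SE 0.18) and -1.62 (SE 0.14). The RiboTag libraries showed no such course: Pde3a was at 85.1, 67.4 and 69.9 CPM in naive mice and between 28.9 and 176 CPM after surgery, with overlap at each time point. Beside the fall in total RNA, summed smooth muscle markers were at 23066 to 24745 CPM in naive mice, 17131 to 20426 at IM3h, 3432 to 11311 at IM24h and 13222 to 21599 at IM72h. The 4 markers of interstitial cells of Cajal summed to 366 to 372 CPM in naive total RNA, 256 to 268 at IM3h (3 of 4 called lower), 232 to 381 at IM24h (1 of 4) and 157 to 182 at IM72h (4 of 4). Pde3a was lowest at IM72h, as was the sum for interstitial cells of Cajal, whereas the smooth muscle sum was lowest at IM24h. The part of cell makeup in the Pde3a level was not tested. The antisense gene Gm28523 overlaps Pde3a, and whether counting used strand is not given in the sources used here.

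Pde4d, an isoenzyme gene of the same PDE4 family, was at 15.6, 19.4 and 19.2 CPM in naive total RNA and at 6.22, 5.42, 6.79 and 6.31 CPM at IM72h, 2.97-fold lower (log2 fold change -1.57, SE 0.17). Before that it overlapped the naive libraries, at 19.2 to 22.8 CPM at IM3h and 7.38 to 16.8 CPM at IM24h. Its transcript Pde4d-207 (chr13:109903106-109953461) took 60.6% of the Pde4d counts in naive total RNA and 30.2% at IM72h. In RiboTag libraries Pde4d was at 20.9 to 29.2 CPM in naive mice and 12.9 to 22.6 CPM at IM3h, and at IM72h the 4 libraries held 96.0, 11.9, 0 and 1.23 CPM, too far apart to give a direction. The antisense genes Gm27572 and Gm28016 overlap Pde4d.

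Pde4a, a further gene of the same family, was at 12, 12.1 and 8.35 CPM in naive total RNA and at 17, 14.9, 15.1 and 15.3 CPM at IM72h (log2 fold change 0.51, SE 0.17), a direction that turned to -0.10 when libraries were scaled by reference genes. It was below the naive libraries at IM3h, at 6.65 to 7.67 CPM, and at IM24h, at 2.73 to 8.01 CPM (log2 fold change -0.935, SE 0.38). In RiboTag libraries the level at IM3h was 4.79, 6.21, 7.56 and 1.12 CPM against 8.77, 12 and 12.8 CPM. At IM72h Pde4a was at 29.5, 0, 51.9 and 0 CPM there, and 90.5% of these counts lay in Pde4a-205, annotated as a retained intron, against 15.4% in naive libraries. PDE4 genes therefore did not share a course: in total RNA at IM72h Pde4d was lower, Pde4a higher and Pde4b 1.21-fold above naive mice, the last turning to a log2 fold change of -0.34 with reference-gene scaling.

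Among the anchors, Akap12 (also known as gravin or SSeCKS), a large scaffold that binds protein kinase A, protein kinase C and β-adrenergic receptors, was higher at IM3h in both fractions. RiboTag libraries held 197, 266 and 237 CPM in naive mice and 960, 1033, 1156 and 1527 CPM at IM3h. The groups were far apart, with a 5.22-fold higher level (log2 fold change 2.38, SE 0.27). In total RNA Akap12 was at 243, 262 and 242 CPM in naive mice and 590, 775 and 650 CPM at IM3h, 2.79-fold higher (log2 fold change 1.48, SE 0.12).

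Later the fractions parted. In total RNA Akap12 fell below its naive level, to 125, 97.5, 97.6 and 124 CPM at IM24h (log2 fold change -1.17, SE 0.16) and to 58.8, 67.8, 64.6 and 99.3 CPM at IM72h (-1.81, SE 0.17). In RiboTag libraries it was at 255, 569, 522 and 406 CPM at IM24h (0.93, SE 0.36) and 418, 171, 562 and 1134 CPM at IM72h (1.33, SE 0.61). Most of these late RiboTag libraries were above the naive ones but the groups overlapped, and neither change was called. With scaling by the reference genes Actb, Hsp90ab1 and Rplp1 both late RiboTag changes turned negative, to -0.82 and -0.39, in step with a median over all genes of -1.51 and -2.07. Mesothelial markers, which mark the covering layer of the bowel wall, summed to 86.7 to 126 CPM in naive total RNA, 1.77 to 11.7 at IM3h, 6.50 to 73.8 at IM24h and 30.2 to 71.4 at IM72h. The part of any cell type in the fall of Akap12 was not tested.

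Akap13 (AKAP-Lbc), an anchor that is also an exchange factor for the small GTPase RhoA, was called by edgeR against naive mice in total RNA at IM3h and, on TMM scaling, in no other such comparison. It was at 376, 358 and 339 CPM in naive RiboTag libraries and 526, 443, 517 and 617 CPM at IM3h, 1.53-fold higher without overlap (log2 fold change 0.61, SE 0.22). This change was called by DESeq2 but not by edgeR. In total RNA the step from 165, 194 and 184 CPM to 229, 245 and 257 CPM (0.48, SE 0.11) was called. Scaled by reference genes, this step shrank to 0.074 and was not called. At IM24h and IM72h total RNA was back within or near the naive range, at 174 to 220 CPM, and RiboTag libraries at IM72h were below their own, at 300, 211, 121 and 111 CPM, 1.91-fold lower without overlap (log2 fold change -0.94, SE 0.47, not called). With reference-gene scaling this change was -2.65 and Akap13 was the 1 member called there. In total RNA at IM72h 18% of the Akap13 counts lay in the retained intron Akap13-211, against 7.14% in naive mice.

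Adcy9, the widely expressed cyclase that forskolin hardly stimulates, was lower at IM3h. Total RNA held 35.1, 45.0 and 30.1 CPM in naive mice and 18.3, 20.2 and 18.8 CPM at IM3h (log2 fold change -0.89, SE 0.17). In RiboTag libraries the naive values were 41.4, 41.5 and 42.4 CPM and those at IM3h 14.5, 18, 36.5 and 39.2 CPM, all below the naive ones but split into a low and a high pair. Its fold change of -0.57 (SE 0.37) was not called. At IM24h and IM72h total RNA lay at 21.9 to 35.0 CPM and overlapped the naive libraries.

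Crem encodes cAMP-responsive activators and, from promoters inside the gene, short repressors. In total RNA Crem was at 8.58, 11.2 and 11.5 CPM in naive mice and at 35.6, 29.4 and 42.9 CPM at IM3h, 3.58-fold higher (log2 fold change 1.84, SE 0.20). It was back at 11.2 to 15.9 CPM at IM24h and 8.83 to 11.7 CPM at IM72h, so IM3h was the only group that did not overlap the naive libraries. In RiboTag libraries Crem held 6.10, 3.73 and 8.30 CPM in naive mice and 13.6, 31.1, 25.1 and 5.33 CPM at IM3h. There 3 of 4 libraries were above the naive range and 1 was inside it, and the change of 1.70 (SE 0.59) was called by DESeq2 but not by edgeR. The library inside the range held 15732 genes with at least 1 count, against 18549 to 19251 in the other RiboTag libraries of IM3h. The later RiboTag values rest on 1 to 65 counts per library and give no direction.

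The Crem transcripts with most counts moved unequally in total RNA. Crem-233 (chr18:3266356-3337488), which spans nearly the whole gene, had 0.10, 0.08 and 1.46 estimated counts in naive mice and 64.1, 52.2 and 92.3 at IM3h. Crem-219, which starts inside the gene (chr18:3266957-3281769), went from 32.4, 21.7 and 51.9 to 101, 60.3 and 105 counts, and Crem-204 from 29.9, 22.7 and 31.1 to 79.6, 68.5 and 50.3. Crem-233 thus took 29.6% of the Crem counts at IM3h against 0.76% in naive mice. In RiboTag libraries at IM3h it had 93.9 and 165 counts in 2 libraries and 0.41 and 0.13 in the other 2. Crem-233 and Crem-204 share their annotated 3′ end, where these libraries are read, so the split between them rests on the authors' assignment and is uncertain. The gene Gm6225 lies on the opposite strand within Crem.

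**Figure D3:**
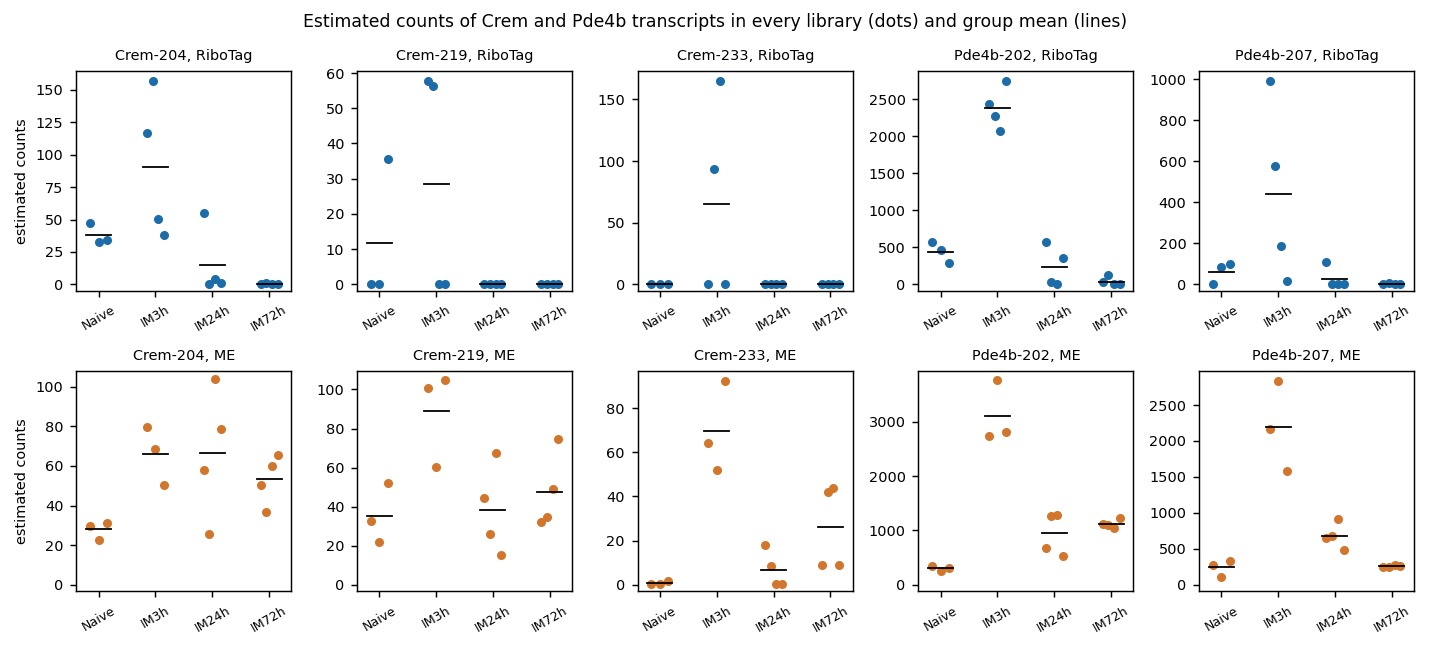
Estimated counts per library of the leading transcripts of Pde4b and Crem, by group and fraction, each dot being 1 library and each line a group mean. In total RNA (ME) Crem-233 is near 0 in naive libraries and at 52.2 to 92.3 counts at IM3h, and Pde4b-202 goes from 259 to 341 counts to 2746 to 3760.

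Over all 29 libraries of both fractions, after centring each fraction on its own mean, the genes whose log2 CPM ran most like that of Crem out of 16136 compared were Csnk1g3 (Pearson r 0.71), A730049H05Rik (0.70), Lin54 (0.70), Adra2a (0.69) and Gm47111 (0.68). All genes of a library carry its depth and rRNA share, which differ widely between these libraries, and r is a description only. Csnk1g3 encodes a casein kinase, and at IM3h it was higher by a log2 fold change of 1.47 (SE 0.28) in RiboTag and 0.96 (SE 0.15) in total RNA. Adra2a encodes an α2-adrenergic receptor. Its log2 fold changes at IM3h were 1.20 (SE 1.17) in RiboTag and 0.24 (SE 0.24) in total RNA, and it was called at no time point in either fraction.

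Akap5, an anchor of protein kinase A, protein kinase C and calcineurin best known from synapses, had the widest swings, and its counts are uncertain for a reason given next. In RiboTag libraries it was at 843, 510 and 411 CPM in naive mice and at 17.3, 21.3, 26.3 and 31.1 CPM at IM3h, 23.6-fold lower (log2 fold change -4.56, SE 0.33). It was at 1366, 3247, 3497 and 707 CPM at IM24h (1.92, SE 0.56) and at 2178, 1927, 4501 and 2019 CPM at IM72h (2.22, SE 0.45). In total RNA it stayed at 219, 252 and 184 CPM in naive mice and 229, 204 and 205 CPM at IM3h, and was lower at 85.6, 57.1, 64.7 and 121 CPM at IM24h (-1.41, SE 0.25) and 130, 181, 138 and 67.0 CPM at IM72h (-0.79, SE 0.26). At IM24h and IM72h it was thus above its naive level in the RiboTag fraction, except that 1 IM24h library lay within the naive range, and below it in total RNA. With reference-gene scaling the late RiboTag changes shrank to 0.24 and 0.66, and the call at IM72h was lost.

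The 5 genes most like Akap5 over the 29 libraries were Tatdn1 (r 0.99), Elp6 (0.98), Gm50024 (0.98), Sez6 (0.98) and Lrrc17 (0.98). Their log2 fold changes in RiboTag libraries at IM3h were -4.30, -4.37, -3.40, -3.35 and -4.41. After these values were seen, the annotated transcripts of the genes were searched for a common stretch. Transcripts of Akap5, Tatdn1, Elp6, Sez6 and Lrrc17 hold an exact copy of part of Bc1 RNA, a small noncoding RNA of neurons whose 5′ domain gave rise to the ID family of repeats. The start of Bc1 (GRCm38, chr7:144914470-144914637, plus strand) is shown because this stretch joins the genes. Capitals mark the bases that lie within positions 8 to 50, counted from the Bc1 start, a stretch that all 5 genes share.
Bc1, bases 1 to 30: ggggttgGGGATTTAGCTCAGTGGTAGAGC
The longest exact run with the first 80 bases of Bc1 was 77 bases in Akap5, 76 in Lrrc17, 67 in Elp6, 57 in Tatdn1 and 43 in Sez6, on the opposite strand in Akap5 and Elp6 and on the same strand in the others. In Akap5 the run lies in the 3′ UTR at chr12:76333416-76333492, 659 bases before the end of the transcript Akap5-202. The transcripts with the run held 100% of the Akap5 counts, 100% of those of Lrrc17, and in RiboTag libraries 99.7% for Elp6, 98.3% for Tatdn1 and 96.5% for Sez6. Gm50024 has no transcript in the annotation used.

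Among 27888 genes of the tables with annotated transcripts, 11 (0.0394%) hold a run of at least 40 bases. The other 8 members hold at most 12. Of the 6 genes with r over 0.9 to Akap5, 5 hold the run, and of the 21 with r over 0.8 the same number do. For most genes at the lower limit no run was thus found. Gm50024, which has no annotated transcript, could not be searched. Over the 10 run-holding genes compared, r with Akap5 ranged from -0.559 to 0.988 (median 0.876), so not all of them ran like Akap5. Bc1 itself changed in RiboTag libraries by -5.55 (SE 1.31) at IM3h, 1.59 (SE 1.07) at IM24h and -1.06 (SE 1.16) at IM72h, beside -4.56, 1.92 and 2.22 for Akap5. In naive mice it was higher in RiboTag than in total RNA by 2.13 (SE 0.69), beside 1.79 for Akap5. These Bc1 values rest on few counts, 20 to 74 per naive RiboTag library, 0 to 2 at IM3h, 21 to 93 at IM24h and 1 to 7 at IM72h. The ratio of Akap5 to Tatdn1 CPM lay between 0.306 and 0.9 over the 29 libraries, with a median of 0.588, while Akap5 itself ranged from 17.3 to 4501 CPM. Whether reads counted as Akap5 came from Akap5 mRNA or from other RNAs with the stretch cannot be told apart in these tables, and each Akap5 value here and below carries that limit.

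**Figure D4:**
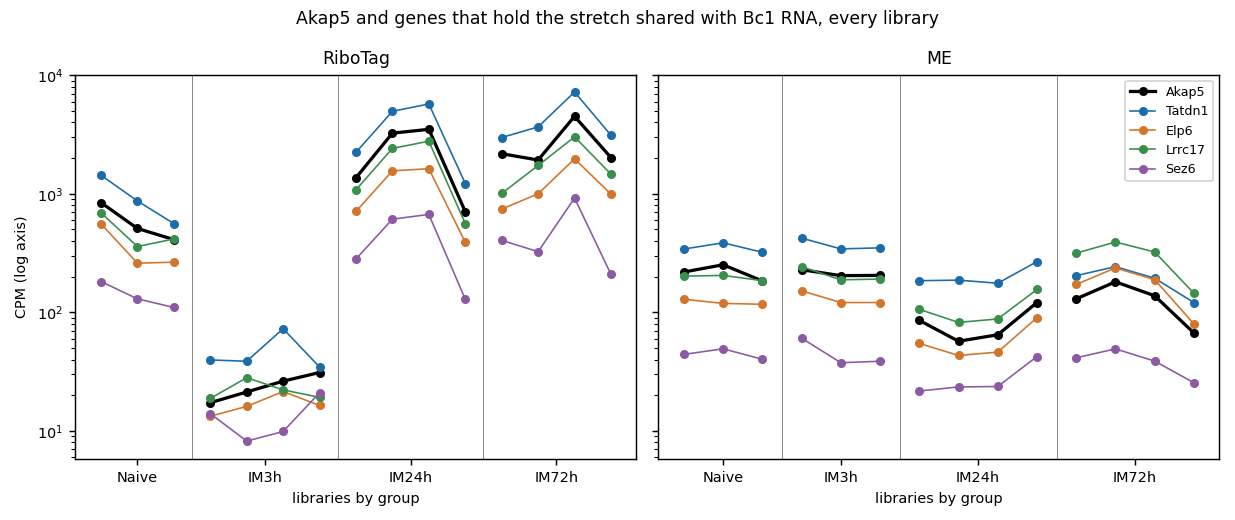
CPM on a log axis of Akap5 and of the 4 genes that share the Bc1 stretch and ran most like it, by library, group and fraction. Lines only join the libraries of 1 gene, and the order of libraries within a group has no meaning. All the genes drawn are low in the 4 RiboTag libraries at IM3h, and Akap5 lies at 707 to 4501 CPM at IM24h and IM72h.

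Whether a gene responded differently in the 2 fractions was tested as an interaction of fraction and treatment over all genes (edgeR's quasi-likelihood test, two-sided, adjusted over all genes). The value is the RiboTag log2 fold change minus that of total RNA. The contrasts with naive mice enter this test, so it is not independent of the choice of genes. At IM3h 2 of 9 genes were called against 1.66% of all genes. In naive and IM3h mice the driver line also differs between the fractions, so its part in these differences cannot be told apart. Pde4b rose less in the RiboTag fraction than in total RNA, by -1.11 (SE 0.25, adjusted p = 0.0399), a call that 3 of 13 fits with 1 library left out kept (adjusted p 0.0271 to 0.139) and that reference-gene scaling lost. Akap5 differed by -4.48 (SE 0.37, adjusted p = 1.7e-05) and was called in 13 of 13 such fits. Akap12 differed by 0.996 (SE 0.28, adjusted p = 0.0926), and Crem by -0.06 (SE 0.68, adjusted p = 0.988), an error too wide to call the responses alike.

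At IM24h 2 genes were called against 0.537% of all genes, Akap12 at 2.11 (SE 0.39, adjusted p = 0.0265) and Akap5 at 3.34 (SE 0.63, adjusted p = 0.0296). Both calls were fragile: 5 and 6 of 14 fits with 1 library left out kept them, and with reference-gene scaling neither was called. At IM72h 2 genes were called against 23.3% of all genes (2.15% called above 0), and the median of all genes was -0.98. Akap12 stood at 2.78 (SE 0.66, adjusted p = 0.00653) and Akap5 at 2.67 (SE 0.53, adjusted p = 0.00236), both above 0 while most called genes (3488 of 3843) were below it. Both were called in 14 of 14 fits with 1 library left out, for Akap12 at adjusted p 0.00036 to 0.0217. With reference-gene scaling Akap5 kept its call (2.07, adjusted p = 0.016), Akap12 lost it (1.99, adjusted p = 0.0645) and Akap13 was called below 0 (-2.11, adjusted p = 0.00389). For Akap12 the difference joins a level of 58.8 to 99.3 CPM in total RNA with 171 to 1134 CPM in RiboTag libraries that hold few Sox10 counts, and the total RNA of IM72h comes from another driver line than that of naive mice.

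Before surgery the fractions differed for 4 of 9 genes, against 26.1% of all genes (same test, naive libraries). Akap13 was 2.54-fold higher in RiboTag than in total RNA (log2 difference 1.34, SE 0.15, adjusted p = 0.00052), and Pde4d was 1.74-fold higher (0.80, SE 0.24, adjusted p = 0.0374), the latter in 2 of 6 fits with 1 library left out. Akap5 was 3.46-fold higher (1.79, SE 0.28, adjusted p = 0.00221). Pde3a was 2.48-fold lower in the RiboTag fraction (-1.31, SE 0.17, adjusted p = 0.000974), beside a smooth muscle marker sum of 5219 to 8073 CPM against 23066 to 24745 CPM. Pde4b (0.03, SE 0.18), Akap12 (0.26, SE 0.16), Adcy9 (0.55, SE 0.20), Pde4a (0.41, SE 0.32) and Crem (-0.43, SE 0.41) were not called. The driver line differs between these 2 groups. With library totals free of rRNA loci 6 of the 9 genes were called, 5 of them higher in RiboTag. The median over all genes was 0.45 there.

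The 81 other genes of the pathway, in 9 lists from cyclases to CREB targets, were read in the same fits. The lists were chosen with earlier results of these data known, so their shares, medians and p-values are a description. At IM3h 71 were tested in RiboTag libraries, and 9 were called higher and 2 lower, 15.5% of the list against 13.3% of all genes. The classic CREB target genes held 6 of the 9: their median log2 fold change was 2.74 against -0.04 for all genes. Fos, an immediate early transcription factor, went from 2.37 to 5.21 CPM in naive libraries to 69.7 to 173 CPM (log2 fold change 5.24, SE 0.48, adjusted p = 5.22e-05). Nr4a1, an orphan nuclear receptor gene, rose by 3.65 (SE 0.49, adjusted p = 0.000687), Gem, a small GTPase gene, by 3.44 (SE 0.39, adjusted p = 0.000238), Nr4a2 by 3.43 (SE 0.87, adjusted p = 0.0217) and the clock gene Per1 by 2.89 (SE 0.43, adjusted p = 0.00117). Dusp1 (2.74) and the salt-inducible kinase genes Sik1 (2.66) and Sik3 (1.36), whose products restrain CREB coactivators, were also called higher and are named after their values were seen. Among the 12 other phosphodiesterase genes and 9 tested anchoring protein genes none was called in RiboTag at IM3h. The calls lower were Adcy7 (-2.69, SE 0.54, adjusted p = 0.00729) and the cAMP-binding Popdc2 (-1.24, SE 0.30, adjusted p = 0.0175). With reference-gene scaling 4 genes were called higher and 1 lower, Nr4a2 and Popdc2 being among those that lost their call, without naive library 3 7 were called in all, and with all RiboTag groups in 1 fit none was.

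Total RNA at IM3h gave 17 of 72 genes called higher and 9 lower, 36.1% of the list against 32.7% of all genes, a split of 12 to 30 with reference-gene scaling and 12 to 24 with library totals free of rRNA loci. Of the 11 CREB targets 8 were higher there and 1, Ppargc1a, lower. Fos rose by 4.93 (SE 0.41, adjusted p = 1.5e-05), Gem by 3.63 (SE 0.22, adjusted p = 2.23e-06) and Dusp1, which encodes a phosphatase of MAP kinases, by 3.36 (SE 0.30, adjusted p = 2.5e-05). The falls included Adcy7 (-1.11), Prkar2b, a regulatory subunit of protein kinase A (-0.77), and the anchor Akap6 (-0.71).

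At IM24h none of 69 pathway genes was called by edgeR in RiboTag libraries; 9 had an unadjusted p under 0.05, and DESeq2 called 4. In total RNA at IM24h 14 were called higher and 21 lower, 48.6% of the list against 29% of all genes, a split of 21 to 14 with library totals free of rRNA loci and of 3 to 18 with reference genes, and without naive library 2 19 were called in all. At IM72h total RNA had 15 higher and 25 lower, 55.6% of the list and 57.5% of all genes, a split of 22 to 22 with library totals free of rRNA loci and 6 to 42 with reference genes, with 6 of 9 anchoring protein genes lower on the main scaling. RiboTag libraries at IM72h had 6 of 67 called, all lower, 8.96% of the list against 16.1% of all genes. Pde4c, Pde1b, Adcy3 and Rapgef3 were at 0 counts in all 4 libraries, at least 11.5-fold, 5.42-fold, 4.71-fold and 3.81-fold lower than in naive mice with a floor of 3 counts per library, and Prkaca, the main catalytic subunit of protein kinase A, held 0 to 12 counts against 417 to 923. Leaving out IM72h library 2 raised these 6 calls to 17, and leaving out naive library 3 lowered them to 3.

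**Figure D5:**
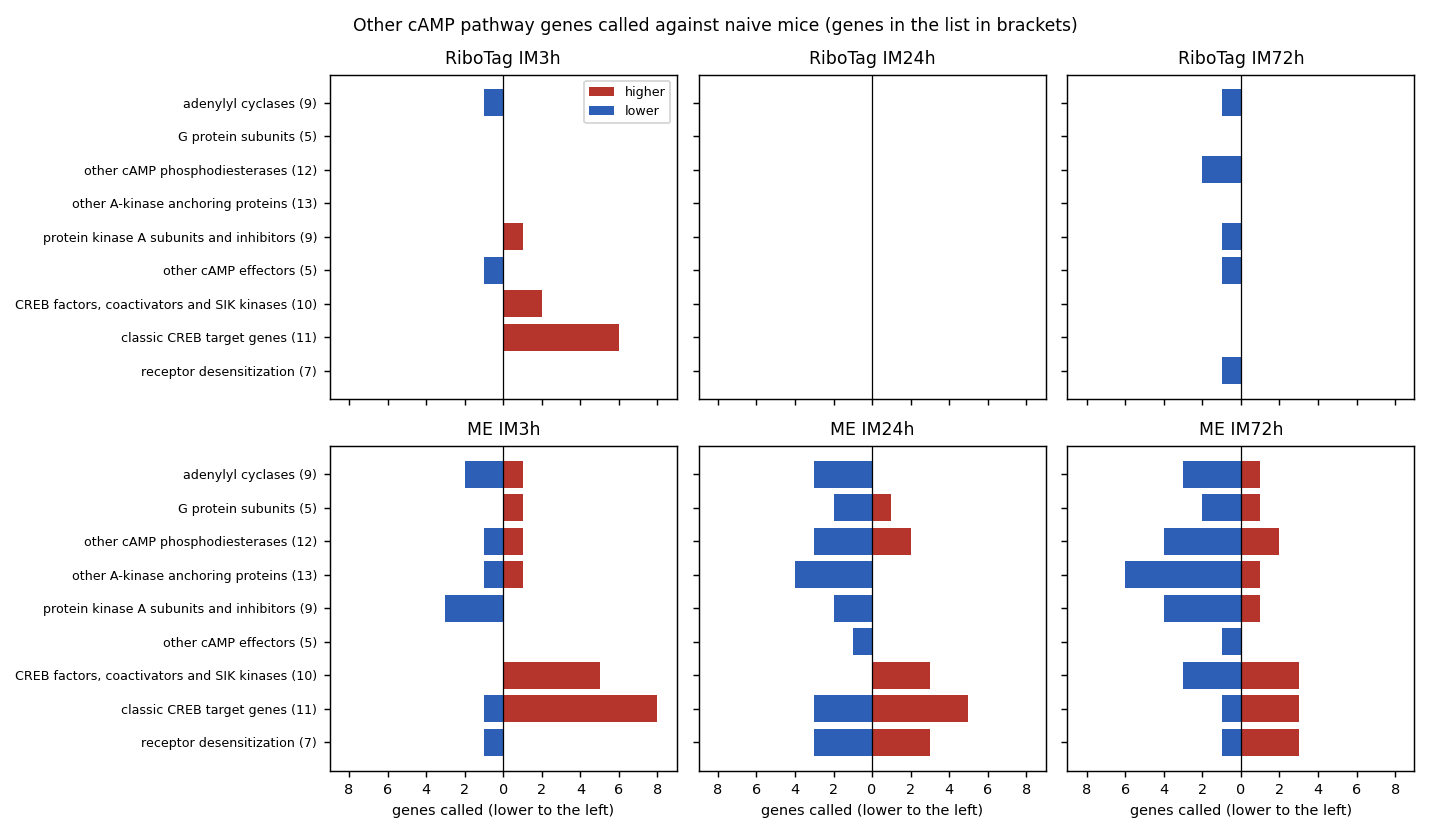
Number of genes of the 9 cAMP pathway lists called higher (bars to the right of 0) and lower (bars to the left) against naive mice, by list, time point and fraction (ME is total RNA), with the size of each list in brackets. In RiboTag libraries the calls at IM3h are 9 higher and 2 lower, at IM24h none and at IM72h 6 lower, while total RNA goes from 17 higher and 9 lower to 15 higher and 25 lower.

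Promoter windows from RefSeq (GRCm38.p6, 250 bases before to 50 bases after a start site) were at hand for 6 of the 9 genes, with 11 windows. None was at hand for Akap12, Pde3a and Crem, so no promoter of these genes was searched. The full cAMP response element TGACGTCA, read on both strands, was in 588 of 32851 windows (1.79%) and in none of the 11. Its short form TGACG was in 20.8% of all windows and in 3 of the 11, and the AP-1 site TGACTCA in 5.20% of all and none of the 11. The full element contains the short form. The 3 windows that hold the short form are shown for the place of the motif in genes of cAMP breakdown and synthesis, each as 30 bases with the motif in capitals (CGTCA is TGACG on the other strand).
Pde4a, chr9:21184039-21184068, plus strand, motif 50 bases before a start: ggcacagctcgaCGTCAggctggggaggag
Pde4b, chr4:102421509-102421538, plus strand, motif 34 bases before a start: gatttggctgcaCGTCAattttctcatctg
Adcy9, chr16:4420505-4420534, minus strand, motif 24 bases before a start: cggacccggcggTGACGtgcgcgggccgcg
The Pde4a start in question, chr9:21184101, is the annotated start of the retained intron Pde4a-205. It lies inside Pde4a-202, the coding form that holds most Pde4a counts. The Pde4b start in question is that of a longer transcript than Pde4b-202, and a match is no evidence of binding.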

How the data were processed

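Total RNA of the ME and RiboTag mRNA were sequenced as 3′ libraries. Per the labels and the study's methods the authors trimmed reads with cutadapt, aligned them to mm10 with STAR and quantified them in Partek. The deposited values are estimated counts per gene (total RNA) or per Ensembl transcript (RiboTag and a second total RNA table), not scaled. Transcripts were summed by symbol and estimated counts rounded to whole numbers. Groups came from the operation entry of each table. The 9 genes, the lists and the tests were chosen with earlier results of these data known. A glial marker of the planned list is not reported here. The named pathway genes are the called genes with the largest changes, at most 5 in each direction per comparison, and Dusp1, Sik1 and Sik3 in RiboTag at IM3h were added after their values were seen.

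Each time point was compared with naive mice within a fraction by the quasi-likelihood test of edgeR 4.0.16 (limma 3.58.1, R 4.3.3), after TMM scaling and filterByExpr. The interaction and the naive fractions were fitted over genes joined by symbol. Printed CPM are counts scaled by a library's total times its TMM factor within the fraction. For correlations, log2 CPM carried a prior of 2 counts. Alternatives were DESeq2 1.42.0 and its size factors, library totals without rRNA loci, 3 reference genes, no filter, all groups in 1 fit, the study's threshold (unadjusted p under 0.05 and over 2-fold), the total RNA transcript table and each library left out. The fits were tested on simulated data. Total counts of 3010306 to 12866062 per library bound the precision. No 2 libraries of the same group agreed within counting noise.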

Additional observations from a re-analysis of the deposited data

Results flagged for a closer look

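A library stood apart from the other 3 of its group for 4 of the 45 combinations of member and group of 4 libraries that were examined, all 4 in the RiboTag fraction; chance alone flags about 1 in 20. Akap5 was at 4501 CPM in 1 IM72h library against 1927 to 2178 CPM in the others. Pde4d was at 96.0 CPM in 1 IM72h library and at 0 to 11.9 CPM in the others. Pde3a was at 92.5 CPM in 1 IM3h library against 54.2 to 58.7 CPM, and Adcy9 at 50.1 CPM in 1 IM24h library against 22.5 to 25.8 CPM.

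The difference in the change after surgery between the fractions was called for 3 genes (RiboTag log2 fold change minus that of total RNA, edgeR's quasi-likelihood test, adjusted over all genes), in a test that is not independent of the choice of genes. For Pde4b the difference at IM3h was -1.11 (adjusted p = 0.0399), called in 3 of 13 fits with 1 library left out. For Akap12 it was 2.11 at IM24h (adjusted p = 0.0265) and 2.78 at IM72h (adjusted p = 0.00653). For Akap5, whose transcripts hold the Bc1 stretch, it was -4.48 at IM3h (adjusted p = 1.7e-05), 3.34 at IM24h (adjusted p = 0.0296) and 2.67 at IM72h (adjusted p = 0.00236). At IM24h the calls of Akap12 and Akap5 held in 5 and 6 of 14 such fits, and with reference-gene scaling both were lost, as were those of Pde4b at IM3h and Akap12 at IM72h.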

How the results depend on the processing

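No paired analysis was possible because the library names in the tables match no replicate number of the labels. In naive and IM3h mice the labelled driver line also differs between the fractions, so no pairs exist there. Depth limits RiboTag libraries at IM72h most, where members at 0 to 3 counts give no direction. Reference-gene scaling set the median log2 fold change over all genes at -0.45, -1.51 and -2.07 in RiboTag and at -0.41, -0.35 and -0.58 in total RNA at IM3h, IM24h and IM72h, and totals without rRNA loci set it at -0.24, -0.27 and -0.49, and at -0.22, 0.34 and 0.28. Of the 9 members the number called changed as follows. In RiboTag it was 5 with DESeq2 and 1 with all groups in 1 fit at IM3h (main 3), 1 with DESeq2, no filter or the study's threshold at IM24h (main 0), and 0 without the filter at IM72h (main 1). In total RNA the study's threshold gave 3, 2 and 3 (main 6, 4 and 5), and reference genes 8 at IM72h. The number of pathway genes called in RiboTag was 5 with reference genes and 0 with all groups in 1 fit at IM3h (main 11), 8 with the study's threshold and 4 with DESeq2 at IM24h (main 0), and 12 with the study's threshold, 15 with reference genes and 0 without the filter at IM72h (main 6). In total RNA it was 16 with the study's threshold and 42 with reference genes at IM3h (main 26), 21 with reference genes at IM24h (main 35) and 22 with the study's threshold at IM72h (main 40). The members called for a difference between fractions (2 at each time) were 1 with reference genes at IM3h, 1 without rRNA loci and 0 with reference genes at IM24h, and 4 with the study's threshold at IM72h. With 1 library left out, pathway calls ranged over 7 to 14, 0 to 0 and 3 to 17 in RiboTag and 21 to 26, 19 to 40 and 35 to 41 in total RNA, member calls over 3 to 4, 0 to 0, 1 to 2, 5 to 6, 4 to 4 and 4 to 6, and fraction differences over 1 to 3, 0 to 2, 2 to 4 and, in naive mice, 3 to 4. Between scalings the sign turned for 18 of the 54 changes of members against naive mice, 17 of them not called. The called one was Pde4a in total RNA at IM72h, at -0.10 with reference genes. Differences between fractions, none of these called, turned as follows: the Crem difference at IM3h to 0.0088 with reference genes; the differences at IM24h without rRNA loci and with reference genes to -0.26 and -0.89 (Akap13), -0.36 and -1.02 (Pde4a), -0.29 and -0.89 (Pde4d) and -0.38 and -0.71 (Adcy9); the Pde4a difference at IM72h to -0.64 with reference genes and -0.16 without the filter; and, in naive mice, Pde4b to -0.0469 without the filter and Crem to 0.0116 without rRNA loci. With 1 library left out, the sign of uncalled differences between fractions turned for Crem at IM3h (-0.42 to 0.26), Pde4a (-0.19 to 0.58), Pde4d (-0.0609 to 0.41) and Adcy9 (-0.52 to 0.20) at IM24h, Pde4a (-0.93 to 0.43) and Pde4d (-0.97 to 1.90) at IM72h, and Pde4b in naive mice (-0.14 to 0.13), and that of uncalled changes against naive mice for Pde4d (-2.49 to 0.56), Pde4a (-0.27 to 1.36) and Pde3a (-0.26 to 0.64) in RiboTag at IM72h, Pde4b in RiboTag at IM24h (-0.28 to 0.31), and in total RNA Akap5 at IM3h (-0.15 to 0.14) and Akap13 (-0.000393 to 0.12) and Crem (-0.19 to 0.022) at IM72h. The cause was not tested. Leaving out the 2 IM24h RiboTag libraries with over 50% AY036118, chosen after seeing the data, left 0 members and 0 pathway genes called.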
